A study of Mus musculus with 6 samples.

Results

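The comparison described here is that of cells sorted from the brain with cells sorted from the blood of mice that had both undergone stroke. It rests on 4 of the 6 libraries of the series, 2 labelled tMCAO brain and 2 labelled tMCAO blood (stroke blood). Genes were taken into the comparison when both libraries of at least 1 of these groups held 10 or more counts, which left 11756 of the 24394 genes of the count table, 9374 past that minimum in both tissues, 1568 in brain alone and 814 in tMCAO blood alone. All mice were wild type (WT), of the C57BL/6NCrl background in the labels (C57BL/6J in the study's methods) and 9 weeks old. Transient middle cerebral artery occlusion (tMCAO), in which an artery that feeds much of a hemisphere is blocked and then released, lasted 60 minutes, and cells were taken 3 days later. From each tissue 500 to 1000 cells were sorted by FACS as CD8+CD122+CD49dlow and lysed, and cDNA was made with a SMART-Seq kit for very low input and sequenced in bulk. The 2 remaining libraries came from the blood of sham-operated mice sorted with the same gate. They shared the fit and are given beside a value where they help to read it. Whether a library came from 1 mouse or from several pooled mice is not given in the sources used here, so p-values measure the spread between these libraries, which may be technical.

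CD8+ T regulatory-like cells (CD8+ TRLs) are CD8 T cells that carry CD122, the beta chain of the IL-2 and IL-15 receptors, and little CD49d, an integrin chain, and that restrain other immune cells. A CD8 T cell is defined by the CD8 coreceptor, the CD3 chains of the T cell receptor and the kinases that signal from it. The brain after stroke also holds many myeloid cells. Microglia, its resident macrophages, and monocytes that enter from blood share the transcription factor PU.1, the receptor for CSF1, Fc receptors, complement and a large lysosomal apparatus, and they clear dying cells.

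The genes that define the sorted cell were close to absent from the brain libraries. *Cd8a*, the CD8 alpha chain (chr6:71373427-71379173 on GRCm38), measured 2.31 and 2.2 CPM in brain against 792 and 1282 CPM in stroke blood, where CPM is the count scaled to a common library size and by the trimmed mean of M-values (TMM). *Lck*, the kinase bound to CD8 (chr4:129548344-129573641), measured 15.5 and 12.4 CPM in brain against 2521 and 3609 CPM in stroke blood. *Cd3e*, a CD3 chain, measured 7.01 and 5.42 CPM in brain against 928 and 453 CPM in stroke blood. In each of the 3 genes both brain libraries lay far below both blood libraries, and sham blood was near tMCAO blood (951 and 871 CPM for *Cd8a*). *P2ry12*, a purine receptor of microglia (chr3:59216272-59262871), measured 584 and 1481 CPM in brain against 7.63 and 5.94 CPM in stroke blood. *Cd68*, a lysosomal glycoprotein of macrophages (chr11:69664213-69666153), measured 3244 and 2954 CPM in brain against 39.9 and 28.3 CPM in stroke blood. Both were high in both brain libraries and low in all blood libraries. The label of the brain libraries as CD8+ TRLs therefore has no counterpart in these marker genes, and they are called brain-sorted libraries below. In bulk libraries, fewer cells of a type and less RNA per cell cannot be told apart.

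The starts of these 4 marker genes are shown because the check of the labels rests on them. They are the 250 bases before each start in RefSeq on GRCm38.p6, 5′ to 3′ on the strand of the gene. Capitals mark AGGAAGT, the core letters of sites of ETS factors such as PU.1 and ETS1, and TGTGGTT, letters of RUNX sites, searched on both strands. The matches of the 2 motifs do not overlap.
P2ry12, chr3:59262986-59263235, minus strand: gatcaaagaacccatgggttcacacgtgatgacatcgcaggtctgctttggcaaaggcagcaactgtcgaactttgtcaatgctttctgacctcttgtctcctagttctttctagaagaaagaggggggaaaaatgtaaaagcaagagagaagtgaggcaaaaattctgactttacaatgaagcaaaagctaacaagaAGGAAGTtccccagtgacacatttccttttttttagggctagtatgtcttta
Cd68, chr11:69666171-69666420, minus strand: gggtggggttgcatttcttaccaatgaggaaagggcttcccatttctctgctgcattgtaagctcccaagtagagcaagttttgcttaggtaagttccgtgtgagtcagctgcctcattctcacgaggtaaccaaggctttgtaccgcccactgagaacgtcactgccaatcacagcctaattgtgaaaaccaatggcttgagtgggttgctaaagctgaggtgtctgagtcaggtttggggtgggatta
Lck, first start, chr4:129573642-129573891, minus strand: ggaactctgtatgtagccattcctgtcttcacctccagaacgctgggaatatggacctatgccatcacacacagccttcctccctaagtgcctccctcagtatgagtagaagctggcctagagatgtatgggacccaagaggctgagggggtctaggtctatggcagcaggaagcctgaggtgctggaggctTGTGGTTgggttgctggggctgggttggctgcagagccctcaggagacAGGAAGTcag
Lck, second start, chr4:129558373-129558622, minus strand: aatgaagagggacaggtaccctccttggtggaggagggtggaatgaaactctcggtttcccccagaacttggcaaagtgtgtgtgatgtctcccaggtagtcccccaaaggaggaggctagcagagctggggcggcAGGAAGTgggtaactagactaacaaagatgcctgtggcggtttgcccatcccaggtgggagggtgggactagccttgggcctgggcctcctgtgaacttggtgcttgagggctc
Cd8a, chr6:71373177-71373426, plus strand: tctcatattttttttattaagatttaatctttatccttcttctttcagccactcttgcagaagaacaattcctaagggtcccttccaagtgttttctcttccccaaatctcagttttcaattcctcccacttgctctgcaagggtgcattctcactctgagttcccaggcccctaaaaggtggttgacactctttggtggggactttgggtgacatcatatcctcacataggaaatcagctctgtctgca
AGGAAGT stood before *P2ry12* and before both starts of *Lck*, and TGTGGTT before the first start of *Lck*. Neither motif was found in the windows of *Cd68* and *Cd8a*. Of the 27025 genes with a start in the table, 8.8% held AGGAAGT and 5.08% TGTGGTT in this window. Among tested genes, 9050 of 11756 had a start there. AGGAAGT was found in 11% of the genes called higher in brain, 12.1% of those called lower and 10.1% of those within 2-fold, and TGTGGTT in 3.73%, 5.95% and 3.88%.

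**Figure D1:**
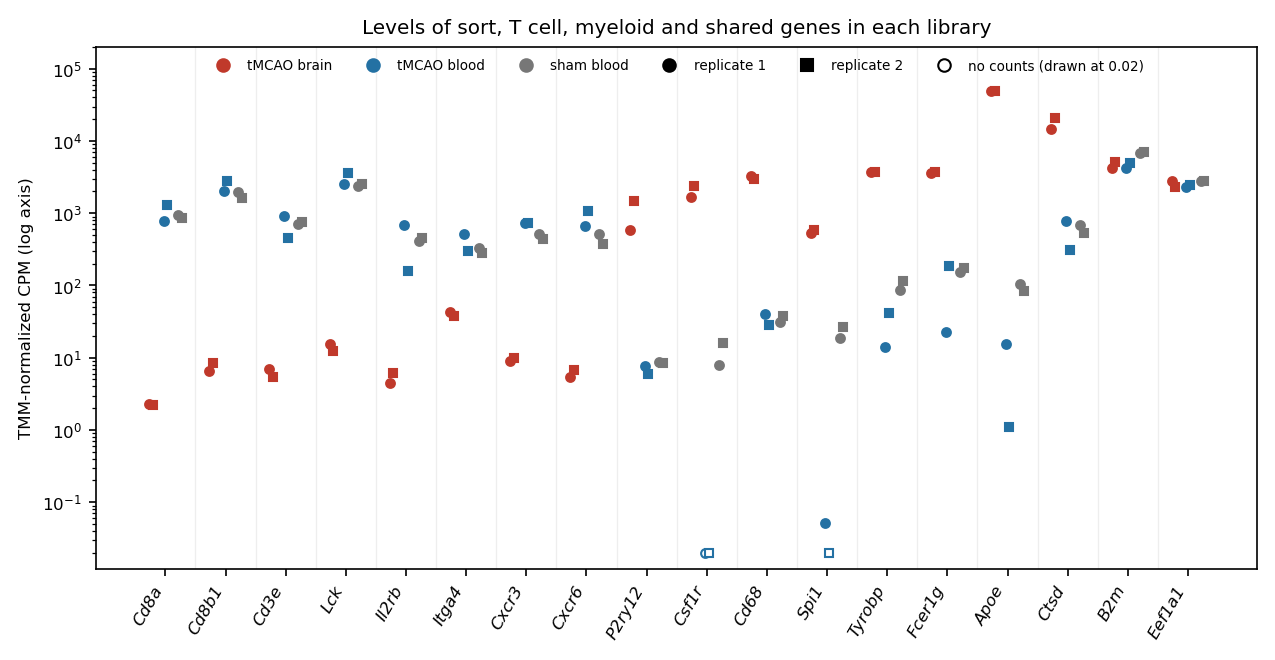
Level of 18 genes in each of the 6 libraries as TMM-normalized CPM on a log axis, with 1 point per library. The brain libraries sit below 50 CPM for *Cd8a* to *Cxcr6* and above 500 CPM for *P2ry12* to *Ctsd*, while *B2m* and *Eef1a1* are at similar levels in all groups.

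Counts on genes were 13793081 to 17149924 per library. The 10 most counted genes took 16.4% and 16.0% of the counts in the brain-sorted libraries and 5.59% and 7.18% in tMCAO blood. Replicates were not equally close. The SD of the log2 ratio between replicates was 0.516 in brain, 0.920 in tMCAO blood and 0.453 in sham blood over 8062 genes of at least 10 CPM on average, and 474, 2038 and 275 of these genes differed by more than 2-fold between replicates.

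Of the 11756 genes, 2573 (21.9%) were higher and 1690 (14.4%) lower in brain at an adjusted p under 0.05 and a fold over 2 in edgeR's quasi-likelihood test. For 1062 genes (9.03%) the whole 95% interval of the difference lay within 2-fold, and 6431 (54.7%) were in none of these classes. Both libraries of 1 tissue lay above both of the other for all 4263 called genes, as they did for 70.7% of all genes tested. Differences were large. The fold was over 10 for 1470 of the higher and 534 of the lower genes, and over 100 for 565 and 102, with a tissue of fewer than 3 counts set to 3. Of the genes called higher, 1149 passed the count minimum in brain alone and 585 had no count in tMCAO blood. Of those called lower, 429 passed it in blood alone and 103 had no count in brain. A gene with no count in 1 tissue passed the minimum through the other alone, so its direction was fixed. A gene with some counts in 1 tissue but below the minimum there also entered through the other alone. That choice favours a difference in the same direction. Counts of list members below include genes of both kinds and are to be read against the 21.9% higher and 14.4% lower of all genes. The genes within 2-fold were the better counted ones, with a median level of 80.0 CPM against 24.6 CPM for all genes tested.

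The balance of higher and lower calls depended on the scaling. Under TMM 60.4% of the called genes were higher in brain and the median log2 fold change of all genes was 0.07. Scaled to library size alone, the counts were 1984 higher and 2900 lower (40.6% higher) and the median was -0.44. Scaled to ribosomal protein genes, they were 3007 and 1161 (72.1%) and the median was 0.41. On FPKM values with a pseudocount of 1 they were 1591 and 1998 (44.3%), and with 0.1 they were 1777 and 2020 (46.8%). Scaled to the T cell genes themselves, the median of all genes was 7.64, with 11410 genes higher and 7 lower, and 116 of the 339 named genes changed sign. The words higher and lower below are therefore relative to TMM, which sets the bulk of all genes near equal, and medians of gene lists are given against 0.07.

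**Figure D2:**
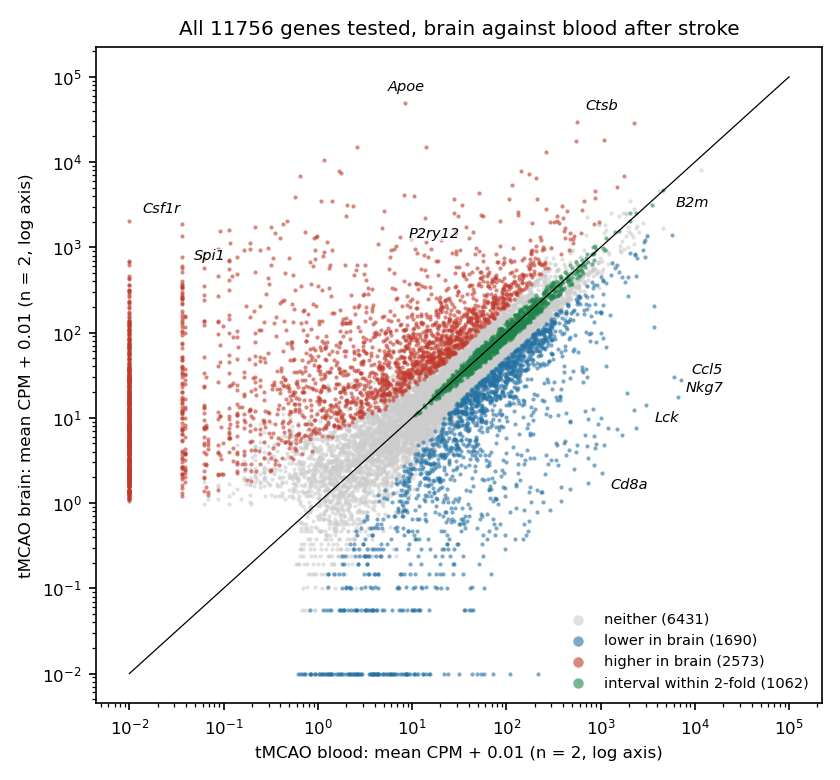
Mean level of each of the 11756 genes in tMCAO blood (x axis) and tMCAO brain (y axis), as CPM plus 0.01 on log axes, with n = 2 per tissue. The columns of points at the left and the rows at the bottom are genes with few or no counts in 1 tissue, and genes within 2-fold follow the line of equal levels.

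All 21 members tested of a list of T cell identity genes were lower in brain, with log2 fold changes of -8.88 to -5.23 and a median of -7.77. The list took 0.00701% and 0.00526% of the counts in brain and 1.54% and 1.79% in tMCAO blood, and none of its genes was at 0 in brain. All 21 were also called under library size scaling, under ribosomal scaling and without any 1 library, but not under scaling to the list itself, which sets its mean to no difference by construction. *Cd8b1*, the CD8 beta chain, measured 6.55 and 8.45 CPM in brain against 2019.5 and 2758 CPM in stroke blood (log2 fold change -8.31 ± 0.42, adjusted p = 9.38e-05). *Themis*, a T cell signalling protein, measured 1.01 and 1.01 CPM in brain against 309 and 186 CPM in stroke blood (log2 fold change -7.92 ± 0.42, adjusted p = 9.38e-05). The values of the 2 brain-sorted libraries were close to each other in both genes, and neither overlapped with blood.

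The other genes of the sort gate fell as well. *Il2rb*, which encodes CD122, measured 4.52 and 6.24 CPM in brain against 677 and 159 CPM in stroke blood (log2 fold change -6.28 ± 0.76, adjusted p = 0.00113). The blood libraries differed widely, but both lay far above brain. *Itga4*, which encodes CD49d, measured 43.2 and 37.8 CPM in brain against 523 and 298 CPM in stroke blood. It fell least of the 4 gate genes, by 3.34 on the log2 scale (SE 0.36, adjusted p = 0.000708), and stood above *Cd8a* in brain on the length-scaled FPKM values as well, at 3.06 and 2.66 against 0.434 and 0.549. In tMCAO blood the order was the opposite, with *Itga4* at 66.2 and 60.7 FPKM and *Cd8a* at 416 and 366 FPKM.

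Genes of the lymphocyte and cytotoxic programs followed the T cell genes. All 8 Gimap genes, GTPases that sustain lymphocyte survival, were lower in brain, with log2 fold changes of -8.32 to -6.06. *Gimap4* measured 10.5 and 14 CPM in brain against 2337 and 2138 CPM in stroke blood, and *Gimap5* 0.553 and 0.643 CPM in brain against 188 and 161 CPM in stroke blood. Of 11 lectin receptors of the NK type, which CD8 T cells carry after activation, all 11 were lower (median -7.26 with genes at 0 in brain set to their bound). *Klrd1*, the CD94 chain, measured 2.12 and 3.4 CPM in brain against 299.9 and 407 CPM in stroke blood (log2 fold change -7.00 ± 0.40, adjusted p = 9.38e-05). *Klrg1*, an inhibitory receptor of effector cells, had 789 and 1164 counts in tMCAO blood and none in brain, so it was at least 387-fold lower. Of 12 genes of cytotoxic granules, 9 fell (75%, against 14.4% of all genes) and 2 rose (16.7%, against 21.9%). *Nkg7*, a granule membrane protein, measured 10.1 and 25.4 CPM in brain against 4383 and 8796 CPM in stroke blood (log2 fold change -8.54 ± 0.72, adjusted p = 0.000294). *Gzmk*, granzyme K, measured 2.03 and 1.65 CPM in brain against 154 and 127 CPM in stroke blood (log2 fold change -6.25 ± 0.36, adjusted p = 9.38e-05), and *Prf1*, perforin, 0.277 and 0.735 CPM in brain against 66.6 and 30.9 CPM in stroke blood. Both rising members are also made by myeloid cells. *Ctsc*, the protease that activates granzymes and neutrophil proteases, measured 3771 and 3153 CPM in brain against 432 and 891 CPM in stroke blood (log2 fold change 2.39 ± 0.40, adjusted p = 0.0043), and *Srgn*, the granule proteoglycan, 2338 and 1669.8 CPM in brain against 1103 and 833 CPM in stroke blood (log2 fold change 1.05 ± 0.32, adjusted p = 0.0375). The call of *Srgn* was lost in 10 alternatives, among them library size scaling (log2 fold change 0.53), both FPKM settings (0.66), the replicate block (1.05, adjusted p = 0.0589), edgeR on the 4 libraries (adjusted p = 0.109) and all runs without 1 library other than tMCAO blood replicate 1.

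Transcription factors and receptors of T cell state moved in both directions. Of 17 factors of memory and effector T cells, 9 fell (52.94%, against 14.4% of all genes), 3 rose (17.65%, against 21.9%) and 5 did not pass. *Lef1* and *Tcf7*, factors of quiescent and memory T cells, fell by 7.21 and 6.52 on the log2 scale, with *Lef1* at 1.94 and 0.918 CPM in brain against 227 and 196 CPM in stroke blood. *Ikzf3*, which encodes Aiolos, measured 0.369 and 0.551 CPM in brain against 232 and 105 CPM in stroke blood (log2 fold change -8.49 ± 0.60, adjusted p = 0.000169). *Zeb2*, a factor of effector T cells and of macrophages, rose (152 and 143 against 2.11 and 5.01 CPM, log2 fold change 5.37 ± 0.50, adjusted p = 0.000411), as did *Id3* (log2 fold change 2.53 ± 0.40, adjusted p = 0.00325) and *Foxp3* (log2 fold change 2.16 ± 0.46, adjusted p = 0.0108). *Foxp3*, the factor of CD4 regulatory T cells, was low in every library, at 18.8 and 15.7 CPM in brain against 3.97 and 3.73 CPM in stroke blood, and its call was lost without either brain library, each left out in turn (log2 fold change 2.01 and 2.28). Of 12 coinhibitory receptors, 5 fell and 4 rose. *Tigit* (-6.15 ± 0.45), *Cd160* (-7.49 ± 0.59) and *Ctla4* (-5.29 ± 0.71) fell on the log2 scale. *Entpd1*, the ectoenzyme CD39, rose from 19.8 and 16.2 CPM in tMCAO blood to 202 and 309 CPM in brain (log2 fold change 3.83 ± 0.34, adjusted p = 0.000355), and *Havcr2*, which encodes TIM-3 and is found on T cells and microglia, from 3.66 and 0 to 105 and 186 CPM. The median of the list was 0.76, and 2, 1 and 6 of its genes were higher without brain replicate 1, brain replicate 2 and tMCAO blood replicate 1.

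Genes of egress and homing were mostly lower. Of 13 tested, 11 fell, *Rgs1* rose and 1 did not pass, and without a brain library 6 or 7 were lower. *S1pr1*, the receptor that draws lymphocytes out of tissue, measured 60.2 and 65.4 CPM in brain against 457 and 378 CPM in stroke blood (log2 fold change -2.73 ± 0.28, adjusted p = 0.000597). *Ccr7*, the receptor for lymph node entry, measured 7.65 and 0.643 CPM in brain against 401 and 531 CPM in stroke blood (log2 fold change -6.81 ± 0.98, adjusted p = 0.00232), and the brain libraries differed widely in it. *Cd69*, an early activation marker that opposes egress, was also lower in brain, at 31.5 and 50.3 CPM in brain against 600.3 and 1670.2 CPM in stroke blood (log2 fold change -4.79 ± 0.58, adjusted p = 0.00113). *Rgs1*, a regulator of chemokine signalling in lymphocytes and microglia, measured 1618 and 2841 CPM in brain against 338 and 461 CPM in stroke blood (log2 fold change 2.48 ± 0.37, adjusted p = 0.00268).

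*Cxcr3* and *Cxcr6*, chemokine receptors that the study followed, were lower in the brain-sorted libraries. The study compared their RNA between stroke blood and sham blood and measured them as protein by flow cytometry. The contrast of brain with stroke blood RNA given here is a different one. *Cxcr3*, the receptor for CXCL9 and CXCL10, measured 9.13 and 10.01 CPM in brain against 741 and 732 CPM in stroke blood (log2 fold change -6.26 ± 0.31, adjusted p = 9.38e-05). *Cxcr6*, the receptor for CXCL16, measured 5.44 and 6.7 CPM in brain against 661 and 1057 CPM in stroke blood (log2 fold change -7.14 ± 0.43, adjusted p = 0.000104). *Ccr10* was too low to test, with 1 and 4 counts in brain and 3 and 0 in tMCAO blood. Among 11 inflammatory chemokine receptors tested, 5 rose and 3 fell, and 2 rose without brain replicate 1 and 3 under library size scaling. *Cx3cr1*, the fractalkine receptor of microglia and effector T cells, rose from 53.7 and 16.5 to 424 and 588 CPM (log2 fold change 3.85 ± 0.66, adjusted p = 0.00446), and *Ccr1*, a receptor of myeloid cells, from 0.206 and 0 to 949.6 and 461 CPM (log2 fold change 12.57 ± 2.23, adjusted p = 0.00523). Of their ligands, *Cxcl16* had 796 and 691 CPM in brain against 0 and 0.641 CPM in stroke blood, and *Cxcl9* did not reach the count minimum.

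The microglial list moved the other way. Of 16 genes of homeostatic microglia, 15 rose and *Selplg* fell (median 9.39 with genes at 0 in blood set to their bound). *Tgfbr1*, among those that rose, did not pass on FPKM values (log2 fold change 0.16 with either pseudocount). *Csf1r*, the receptor that microglia need to survive, had 18259 and 25854 counts in brain and none in tMCAO blood, at least 24739-fold higher. In sham blood it had 157 and 311 counts, so it was not absent from all blood libraries. *P2ry13*, a purine receptor, had 2641 and 4536 counts against 1 and 0, a blood to brain ratio of 8.28e-05 (95% counting interval 2.1e-06 to 0.000462). *Tmem119*, a microglial membrane protein, measured 216 and 408 CPM in brain against 0.206 and 0 CPM in stroke blood (log2 fold change 11.39 ± 0.85, adjusted p = 0.000381). *Siglech*, shared by microglia and plasmacytoid dendritic cells, had 1368 and 4841 counts in brain and 1 and 0 in tMCAO blood. *P2ry12*, *Tmem119*, *P2ry13* and *Siglech* all stood higher in brain replicate 2 than in replicate 1, and the share of the list was 0.985% and 1.94% of the counts in these libraries. *P2ry12* lies inside *Med12l* on the other strand, and without a stranded kit the reads of such pairs cannot be told apart. *Selplg*, the P-selectin ligand of most leukocytes, measured 604 and 1055 CPM in brain against 2593 and 2094 CPM in stroke blood (log2 fold change -1.50 ± 0.35, adjusted p = 0.0151) and lost its call without brain replicate 1 (log2 fold change -1.17).

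Genes that microglia raise in damaged tissue were abundant in brain. Of 16 on the list, 14 rose, *Cst7* fell and *Itgax* did not pass (median 6.48). *Apoe*, the lipid carrier of glia and macrophages, measured 49083 and 49533 CPM in brain against 15.6 and 1.11 CPM in stroke blood (log2 fold change 12.52 ± 1.46, adjusted p = 0.000976), and it ranked first in brain by FPKM, at 34584 and 34355. *Spp1*, osteopontin, measured 14572 and 15458 CPM in brain against 5.15 and 0 CPM in stroke blood (log2 fold change 12.49 ± 1.92, adjusted p = 0.00297). *Clec7a*, the beta-glucan receptor dectin-1, measured 678 and 575 CPM in brain against 0.619 and 0 CPM in stroke blood (log2 fold change 10.89 ± 1.33, adjusted p = 0.00117), and *Axl*, a receptor for dying cells, 86 and 81.8 CPM in brain against 3.09 and 3.44 CPM in stroke blood. *Apoe*, *Spp1* and *Clec7a* stood higher in tMCAO blood replicate 1 than in replicate 2 and *Axl* did not, and in sham blood *Apoe* reached 105 and 84.9 CPM. *Cst7*, cystatin F, is made by cytotoxic lymphocytes too and measured 52.2 and 132 CPM in brain against 262 and 379 CPM in stroke blood (log2 fold change -1.80 ± 0.46, adjusted p = 0.0201). Its call was lost without brain replicate 1 (-1.29) or tMCAO blood replicate 2 (-1.58).

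Of 20 genes of monocytes and macrophages, 19 rose and *Ly6c2* fell (median 10.31 with genes at 0 in blood at their bound). *Spi1*, which encodes PU.1, had 5818 and 6459 counts in brain against 1 and 0 in tMCAO blood, a blood to brain ratio of 4.84e-05 (95% counting interval 1.23e-06 to 0.00027). In sham blood it measured 18.5 and 26.4 CPM, so the blood groups differed in this gene too. *Adgre1*, which encodes F4/80, was at least 8492-fold higher and *Mrc1*, the mannose receptor, at least 3868-fold, each with no count in tMCAO blood. In sham blood *Adgre1* had 85 and 149 counts and *Mrc1* 48 and 16. *Ly6c2*, found on monocytes and on memory CD8 T cells, measured 84.4 and 52.2 CPM in brain against 923 and 1361 CPM in stroke blood (log2 fold change -4.06 ± 0.39, adjusted p = 0.000487). Microglia and infiltrating macrophages share most of these genes, so the list does not separate them.

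Lists of other cells took small shares of the counts, and some of their members rose. Of 9 dendritic cell genes tested 6 rose and 2 fell, and 3 rose without either brain library. That list took 0.0332% and 0.0596% of the counts in brain, 0.0523% and 0.0547% in tMCAO blood and 0.104% and 0.103% in sham blood. *Irf8*, a factor of dendritic cells and microglia, measured 257 and 285 CPM in brain against 9.9 and 7.92 CPM in stroke blood (log2 fold change 4.92 ± 0.29, adjusted p = 9.78e-05), and *Flt3*, a growth factor receptor of dendritic cells and their precursors, had 89 and 63 counts in brain and none in tMCAO blood. The neutrophil list took 0.0276% and 0.0246% of the counts in brain against 0.000737% and 0.0013% in tMCAO blood. Of its 5 genes tested 4 rose, 2 without either brain library, and *Ngp* and *Camp* were at 0 in all 6 libraries. *Csf3r*, the G-CSF receptor, which microglia also make, measured 178 and 185 CPM in brain against 0.0515 and 0.35 CPM in stroke blood, and *S100a8*, a calcium-binding protein of neutrophils and monocytes, 99.2 and 82.6 CPM in brain against 0 and 0 CPM in stroke blood. *Mmp8*, a collagenase of neutrophil granules, had 704 and 371 counts in brain and none in tMCAO blood. In sham blood it had 0 and 134 counts. The astrocyte list took 0.00343% and 0.00971% of the counts in brain, a share of the same order as that of the T cell identity genes. Of its 5 genes tested 4 rose, 2 without either brain library. *Gja1*, a gap junction protein, had 175 and 463 counts in brain, *Gfap*, an intermediate filament, 22 and 42 and *S100b* 12 and 95, with none in tMCAO blood. *Slc1a3*, a glutamate transporter of astrocytes, measured 19.4 and 63.1 CPM in brain and had no count in tMCAO blood, at least 503-fold higher, while *Aqp4* was at 0 everywhere. Neuronal genes took 0.000102% and 0.000563% of the counts in brain, with *Syt1*, *Nefl* and *Nefm* at 0 in all libraries. Of the 2 tested 1 rose, *Rbfox3*, with 13 and 20 counts in brain and 1 and 1 in tMCAO blood. It lost its call under the replicate block, in DESeq2 on all 6 libraries and without a filter on low counts. The call was also lost on FPKM values with a pseudocount of 1 (log2 fold change 0.35) and without any 1 brain or tMCAO blood library. Of the oligodendrocyte genes, *Mog*, *Olig1* and *Olig2* were at 0 in all libraries, and *Mbp* did not pass (29.2 and 26.1 CPM in brain against 45.1 and 36.5 CPM in stroke blood). Of the 3 tested, *Mag* rose, with 64 and 101 counts in brain and 2 and 0 in tMCAO blood. *Cnp* fell (log2 fold change -1.85). *Mag* and *Cnp* lost their calls without either brain library, and *Cnp* also without tMCAO blood replicate 1 (log2 fold change -0.97). The endothelial genes *Cldn5* and *Slco1a4* were at 0 throughout. B cell genes took 0.00339% and 0.00513% of the counts in brain, 0.0038% and 0.00904% in tMCAO blood and 0.141% and 0.0996% in sham blood.

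**Figure D3:**
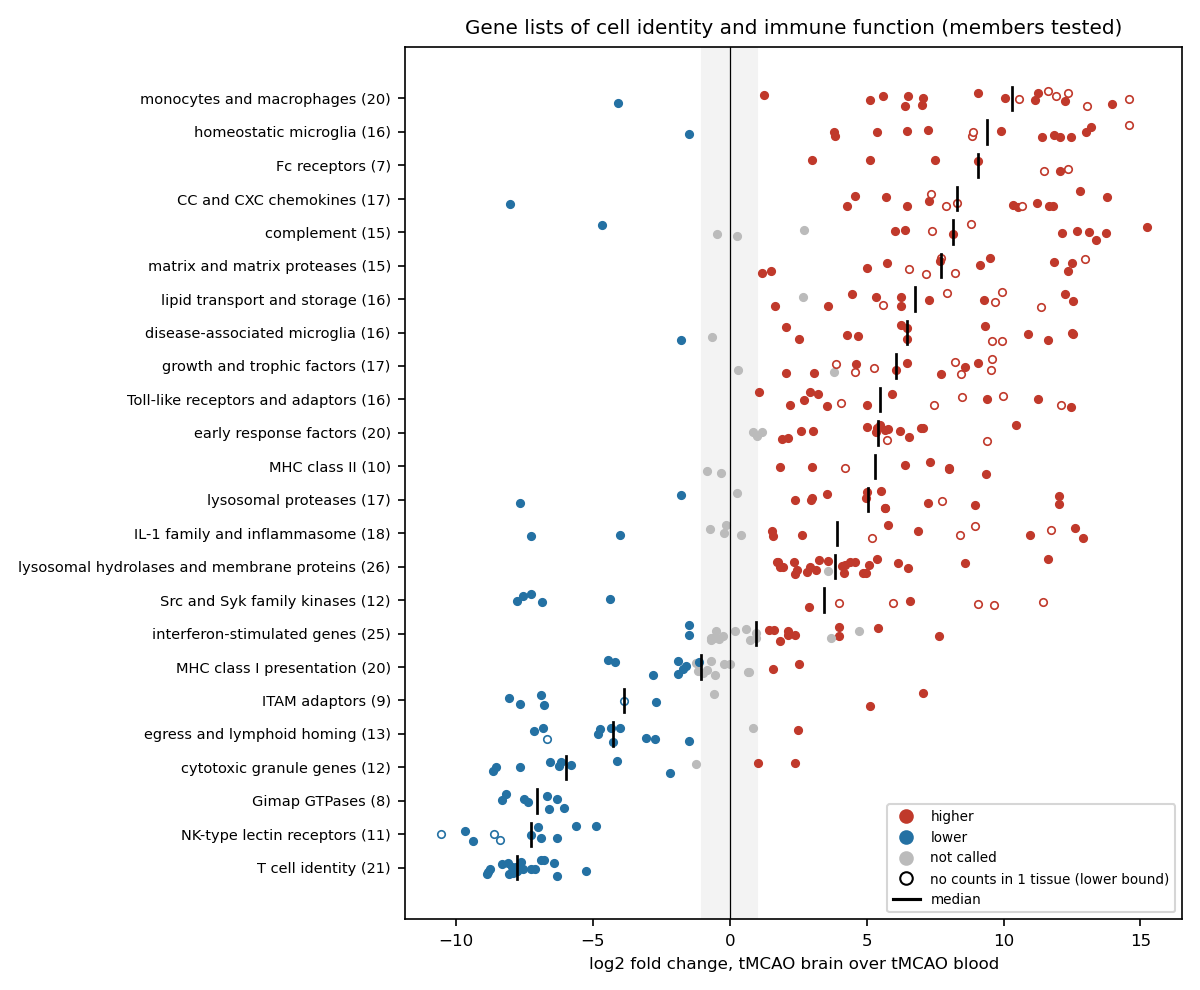
Log2 fold change of each tested member of 24 gene lists, brain over tMCAO blood, with 1 point per gene and the median as a bar. Open points are genes without counts in 1 tissue at their lower bound, and the grey band is 2-fold. All tested T cell identity, lectin receptor and Gimap genes lie to the left of the band, and all tested Fc receptor and Toll-like receptor genes to its right.

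Within families of signalling chains some members rose and others fell. ITAM adaptors carry the signal of antigen and Fc receptors, and of 9 tested 6 fell, 2 rose and 1 did not pass. The share that rose was 22.2%, near the 21.9% of all genes, and 66.7% fell, against 14.4%. *Cd3d* measured 8.02 and 6.89 CPM in brain against 1059 and 1954 CPM in stroke blood, *Cd3g* 7.65 and 4.77 CPM in brain against 1044 and 2308 CPM in stroke blood and *Cd247*, the zeta chain, 3.97 and 3.31 CPM in brain against 449 and 407 CPM in stroke blood. All 3 were over 100-fold lower in brain. *Tyrobp*, the adaptor DAP12 of TREM2 and other myeloid receptors, measured 3678 and 3686 CPM in brain against 13.9 and 41.8 CPM in stroke blood (log2 fold change 7.05 ± 0.64, adjusted p = 0.000391). *Fcer1g*, the Fc receptor gamma chain, measured 3593 and 3779 CPM in brain against 22.4 and 189 CPM in stroke blood (log2 fold change 5.12 ± 0.95, adjusted p = 0.00614), and the blood libraries differed widely in it. *Hcst*, the adaptor DAP10 of NKG2D, had a log2 fold change of -2.68 ± 0.26 on counts. On FPKM values it did not pass, at -6.69 with a pseudocount of 1 (adjusted p = 0.0607) and -8.36 with 0.1 (adjusted p = 0.105), so the size of its fall depended on the table. *Cd79a*, of the B cell receptor, had no count in brain, and *Cd79b* did not pass (log2 fold change -0.59 ± 0.49, adjusted p = 0.38).

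The kinases that act on these adaptors also moved in both directions. Of 12 tested, 7 rose and 5 fell. *Lck* (-7.78 ± 0.41), *Fyn* (-4.39 ± 0.43), *Txk* (-6.86 ± 0.41) and *Zap70* (-7.26 ± 0.66), kinases of T cell receptor signalling, were lower on the log2 scale. *Lyn*, a Src family kinase of myeloid and B cells, measured 507 and 599.6 CPM in brain against 5.46 and 6 CPM in stroke blood (log2 fold change 6.59 ± 0.31, adjusted p = 9.38e-05), and *Fgr* 108 and 71.7 CPM in brain against 7.94 and 16 CPM in stroke blood (log2 fold change 2.91 ± 0.43, adjusted p = 0.00262). *Syk*, the counterpart of ZAP-70, was at least 813-fold higher and *Btk*, a Tec family kinase, at least 531-fold, both with no count in tMCAO blood. *Src* and *Yes1* had 11 and 17 and 24 and 86 counts in brain, none in tMCAO blood, and lost their calls without either brain library.

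Receptors of innate recognition rose in the brain-sorted libraries. All 7 Fc receptor genes tested were higher (median 9.07). *Fcgr2b*, the inhibitory receptor for IgG, measured 1402 and 1267 CPM in brain against 7.32 and 7.46 CPM in stroke blood (log2 fold change 7.50 ± 0.33, adjusted p = 9.38e-05), and *Fcgr3* 2354 and 3011 CPM in brain against 3.04 and 6.93 CPM in stroke blood. *Fcgr1* and *Fcgr4* had no count in tMCAO blood and were at least 5278-fold and at least 2885-fold higher. In sham blood *Fcgr1* had 24 and 64 counts. All 16 Toll-like receptor and adaptor genes tested were higher, and 10 were without either brain library. Of these 16, 5 had no count in tMCAO blood and so could only rise. Others, such as *Tlr7*, were below the count minimum there and entered through brain alone. *Tlr7*, a sensor of RNA, had 2595 and 5104 counts against 2 and 0. *Tlr4*, the sensor of lipopolysaccharide, had 956 and 860 counts and none in tMCAO blood. *Unc93b1*, which brings Toll-like receptors to endosomes, measured 961 and 967 CPM in brain against 25 and 6.64 CPM in stroke blood (log2 fold change 5.93 ± 0.66, adjusted p = 0.000839).

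Complement, which tags cells and debris for uptake, rose in most members. Of 15 genes tested, 11 rose, 1 fell and 3 did not pass (median 8.17 with genes at 0 in blood at their bound). *C1qb*, a chain of C1q, measured 9495 and 11895 CPM in brain against 2.32 and 0 CPM in stroke blood (log2 fold change 13.13 ± 1.54, adjusted p = 0.001), and *C1qa* 3065 and 4647 CPM in brain against 1.13 and 0 CPM in stroke blood (log2 fold change 12.67 ± 1.33, adjusted p = 0.000667). *C5ar1*, the C5a receptor, had 15661 and 13526 counts against 1 and 0. *Cd55*, which protects cells from complement, was the member that fell, at 1.2 and 6.52 CPM in brain against 86 and 112 CPM in stroke blood (log2 fold change -4.67 ± 0.70, adjusted p = 0.00271).

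Lysosomal genes took a large share of the counts in brain. Of 17 genes of lysosomal proteases and their inhibitors, 14 rose, and the list took 6.97% and 7.75% of all counts in brain against 0.467% and 0.396% in tMCAO blood. *Ctsb*, *Ctsd* and *Ctss*, cathepsins B, D and S, were among the 10 genes of highest FPKM in brain. *Ctsb* measured 31147 and 27467 CPM in brain against 574 and 564 CPM in stroke blood (log2 fold change 5.69 ± 0.37, adjusted p = 0.000138). *Ctsd* measured 14839.5 and 20799.9 CPM in brain against 781 and 309 CPM in stroke blood (log2 fold change 5.03 ± 0.57, adjusted p = 0.000886). *Lgmn*, the protease legumain, measured 7691 and 7279 CPM in brain against 2.42 and 1.11 CPM in stroke blood (log2 fold change 12.04 ± 0.59, adjusted p = 9.38e-05). The 2 members that fell, *Ctsw* (2.03 and 3.03 against 581 and 452 CPM) and *Cst7*, are expressed in cytotoxic lymphocytes. Of 26 hydrolases and membrane proteins of the lysosome, 25 rose (median 3.85), and 22 did under library size scaling. *Grn*, progranulin, measured 3889 and 4077 CPM in brain against 12.8 and 7.92 CPM in stroke blood (log2 fold change 8.58 ± 0.53, adjusted p = 0.000119) and *Lamp1* 3822 and 3561 CPM in brain against 233 and 196 CPM in stroke blood (log2 fold change 4.11 ± 0.30, adjusted p = 0.000187). Of 17 subunits of the vacuolar ATPase, the pump that acidifies lysosomes, 8 rose and 9 did not pass, and 5 rose without brain replicate 1. *Atp6v0a1* had 1750 and 1114 counts against 3 and 0, and *Atp6v1a* measured 406 and 319.9 CPM in brain against 51.6 and 30.5 CPM in stroke blood.

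The start of *Ctsd* is shown for the letters TCACGTGA, the core of the CLEAR element that the lysosomal factor TFEB binds. Of the 33 genes of both lysosomal lists with a start in the RefSeq table, 3 held these letters in the 250 bases before it (9.09%), namely *Ctsd*, *Ctsa* and *Gla*. The share was 0.907% of all 27025 genes and 1.82% of genes tested. It was 1.92% of genes called higher, 0.939% of genes called lower and 2.59% of genes within 2-fold. The letters are the same on both strands.
Ctsd, chr7:142387828-142388077, minus strand: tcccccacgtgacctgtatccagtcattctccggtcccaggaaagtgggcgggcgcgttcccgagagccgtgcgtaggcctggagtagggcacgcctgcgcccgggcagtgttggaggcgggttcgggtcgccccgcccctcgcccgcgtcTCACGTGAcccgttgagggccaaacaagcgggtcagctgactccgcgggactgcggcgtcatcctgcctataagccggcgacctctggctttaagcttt
The match lies 99 bases before the start and was chosen for display because *Ctsd* is the most abundant of the 3 in brain.

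Lipid carriers and iron stores were also high. Of 16 genes of lipid transport and storage, 15 rose (median 6.76 with genes at 0 in blood at their bound). Of the 16, 5 had no count in tMCAO blood and so could only rise. *Plin2*, a coat protein of lipid droplets, measured 2796 and 1914 CPM in brain against 28.3 and 33.6 CPM in stroke blood (log2 fold change 6.25 ± 0.40, adjusted p = 0.000128) and *Fabp5* 1170.1 and 550.1 CPM in brain against 14 and 8.45 CPM in stroke blood (log2 fold change 6.26 ± 0.52, adjusted p = 0.00028). *Lrp1*, an uptake receptor for APOE, had 3083 and 1642 counts in brain and none in tMCAO blood. Cholesterol synthesis differed from this. Of its 19 genes 1 rose and 1 fell, and the median was -0.08, which became -0.56 under library size and 0.28 under ribosomal scaling. Of 13 genes of iron and heme handling, 10 rose. *Ftl1* and *Fth1*, the ferritin chains, measured 32734 and 25516 CPM in brain against 1404 and 3099 CPM in stroke blood and 17741 and 19051 CPM in brain against 885 and 1295 CPM in stroke blood in that order. *Slc11a1*, an iron and metal transporter of phagosomes, was at least 5133-fold higher, and *Trf*, transferrin, rose from 1.91 and 2.04 to 1806 and 2839 CPM (log2 fold change 10.20 ± 1.05, adjusted p = 0.000616).

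Of 17 chemokines tested, 16 were higher in brain and *Ccl5* was lower. *Ccl6* measured 4302 and 1837 CPM in brain against 3.56 and 1.11 CPM in stroke blood (log2 fold change 10.35 ± 1.14, adjusted p = 0.000802), *Ccl12*, a ligand of CCR2, 267 and 557 CPM in brain against 0.206 and 0 CPM in stroke blood (log2 fold change 11.79 ± 0.90, adjusted p = 0.000397). *Ccl7* had 3236 and 2186 counts against 1 and 0. *Ccl5*, the chemokine of effector and memory CD8 T cells, measured 8.3 and 47.6 CPM in brain against 8021 and 6370.1 CPM in stroke blood (log2 fold change -8.01 ± 0.93, adjusted p = 0.000978). Of 18 genes of the IL-1 family and the inflammasome 12 rose and 2 fell, and 7 rose without either brain library. *Il1b* measured 1496 and 1934 CPM in brain against 0.412 and 0 CPM in stroke blood (log2 fold change 12.91 ± 1.40, adjusted p = 0.000756), and *Il1rn*, the antagonist of its receptor, had 2795 and 1913 counts against 1 and 0. *Il18r1* and *Il18rap*, the chains of the IL-18 receptor of T and NK cells, fell by 7.25 and 4.01 on the log2 scale. Of 8 cytokines of T cells 5 fell and 3 rose, and 1 rose under library size scaling, without brain replicate 1 or without either sham library. *Ifng*, interferon gamma, measured 0.0922 and 0.643 CPM in brain against 88.5 and 161 CPM in stroke blood (log2 fold change -8.37 ± 0.69, adjusted p = 0.000267) and *Ltb* 2.21 and 3.31 CPM in brain against 449 and 1235 CPM in stroke blood (log2 fold change -8.25 ± 0.65, adjusted p = 0.000242). *Tnf*, which macrophages also make, rose to 310.2 and 1084 CPM from 0.206 and 0 (log2 fold change 12.55 ± 1.62, adjusted p = 0.00147).

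All 13 genes tested of alternative activation of macrophages were higher in brain, and this number was the same without any 1 library. Of these 13, 4 had no count in tMCAO blood and so could only rise. Others, such as *Stab1* and *Saa3*, were below the count minimum there and entered through brain alone. *Stab1*, a scavenger receptor, measured 318 and 246 CPM in brain against 0.309 and 0.233 CPM in stroke blood (log2 fold change 9.97 ± 0.40, adjusted p = 9.38e-05), and *Saa3*, an acute phase protein, 812 and 1070.2 CPM in brain against 0.309 and 0 CPM in stroke blood (log2 fold change 12.43 ± 0.86, adjusted p = 0.000298). *Cd163*, the receptor for haptoglobin and hemoglobin, was at least 1511-fold higher. Of the phagocyte NADPH oxidase 6 genes rose and *Rac2* fell. *Cybb*, the catalytic chain, measured 483 and 349 CPM in brain against 2.47 and 3.96 CPM in stroke blood (log2 fold change 7.01 ± 0.43, adjusted p = 0.000111), and *Rac2*, a GTPase of all blood cells, 458 and 455 CPM in brain against 2206 and 2520.2 CPM in stroke blood (log2 fold change -2.37 ± 0.28, adjusted p = 0.00101). Only 3 of the 6 were called without either brain library, without either sham library or under library size scaling.

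*Lifr*, *Tgfa* and *Il10*, which the study followed in brain CD8+ TRLs, were higher in the brain-sorted libraries, at different levels of support. The study's PCR array set *Lifr* and *Tgfa* in brain cells against blood cells of sham mice. It also measured all 3 as protein by flow cytometry, so contrast and measure differ from those here. *Lifr*, the receptor for leukemia inhibitory factor (chr15:7090614-7197489), had 1236 and 1433 counts in brain and 2 and 0 in tMCAO blood, a blood to brain ratio of 0.000445 (95% counting interval 5.39e-05 to 0.00161) (adjusted p = 0.000128). *Tgfa*, transforming growth factor alpha (chr6:86195223-86275719), had 170 and 451 counts in brain against none in tMCAO blood, at least 348-fold higher (adjusted p = 0.00142). *Il10* (chr1:131019845-131024974) measured 19 and 27.3 CPM in brain against 2.37 and 0 CPM in stroke blood (log2 fold change 4.26 ± 1.34, adjusted p = 0.0426). *Lif*, the ligand of LIFR and not one of these 3, had 16 and 10 counts in brain and none in tMCAO blood, at least 14.6-fold higher (adjusted p = 0.0212). *Lifr* and *Tgfa* kept their calls in all alternatives that were run on them. *Il10* lost its call in 8 alternatives, among them both fits on the 4 libraries alone, with log2 fold changes of 3.65 to 4.57, and *Lif* lost its call in 7. In the same libraries the T cell identity genes were at 0.00701% and 0.00526% of the counts and the genes of monocytes and macrophages at 3.29% and 2.98%. Which cells of the sort carried *Lifr*, *Tgfa*, *Il10* and *Lif* was not tested.

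The wider families of these factors moved with them. Of 17 growth and trophic factors tested, 15 rose, and 8 did without either brain library. Of the 17 tested, 7 had no count in tMCAO blood and so could only rise. Others, such as *Gas6*, were below the count minimum there and entered through brain alone. *Igf1* was at least 773-fold higher, *Vegfa* at least 748-fold and *Hgf* at least 299-fold, each with no count in tMCAO blood, and *Gas6*, a ligand of AXL, measured 217 and 227 CPM in brain against 0.773 and 0 CPM in stroke blood (log2 fold change 9.08 ± 1.06, adjusted p = 0.000973). Of 11 genes of the LIF and gp130 family 8 rose and *Jak1* fell. *Osm*, oncostatin M, measured 503 and 585 CPM in brain against 4.59 and 0.466 CPM in stroke blood (log2 fold change 7.73 ± 1.15, adjusted p = 0.00261), *Socs3*, a feedback inhibitor, 193 and 493 CPM in brain against 25.5 and 5.48 CPM in stroke blood (log2 fold change 4.47 ± 0.81, adjusted p = 0.00558) and *Jak1*, a kinase of most cytokine receptors, 219 and 210.5 CPM in brain against 1114 and 628 CPM in stroke blood (log2 fold change -2.02 ± 0.34, adjusted p = 0.00422). In this family 5, 4 and 5 genes rose without brain replicate 1, brain replicate 2 and tMCAO blood replicate 2. Of 12 genes of the IL-10 and TGF-beta family 9 rose, and 4 did under library size scaling or without either brain library. *Tgfbr1* measured 296 and 341 CPM in brain against 23.3 and 22.1 CPM in stroke blood (log2 fold change 3.81 ± 0.26, adjusted p = 0.000152), and *Il10rb* 563 and 414 CPM in brain against 178 and 180.5 CPM in stroke blood (log2 fold change 1.45 ± 0.27, adjusted p = 0.00626). On FPKM values *Tgfbr1* hardly differed and did not pass (log2 fold change 0.16 with either pseudocount), so its rise depended on the table. All 15 matrix genes tested, of 20 listed, rose, with *Thbs1*, thrombospondin, at 2664 and 772 CPM in brain against 0.619 and 0 CPM in stroke blood and *Timp2* at 639.9 and 1068 CPM in brain against 32 and 20.9 CPM in stroke blood (log2 fold change 5.01 ± 0.50, adjusted p = 0.000549). Of the 15, 5 had no count in tMCAO blood and so could only rise. Others, such as *Thbs1*, were below the count minimum there and entered through brain alone. Of 7 genes of common gamma chain receptors and ligands, 3 rose and 3 fell, and 1 rose without either sham library, without brain replicate 2 or under library size scaling. *Il2rg*, the gamma chain itself, measured 191 and 223 CPM in brain against 1584 and 5725 CPM in stroke blood (log2 fold change -4.14 ± 0.63, adjusted p = 0.00279), and *Il4ra* 185 and 106 CPM in brain against 7.32 and 13 CPM in stroke blood (log2 fold change 3.84 ± 0.44, adjusted p = 0.000886).

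Antigen presentation differed by class. Of 10 genes of MHC class II, which macrophages and dendritic cells use, 8 rose and 2 did not pass (median 5.30 with the gene at 0 in blood at its bound). The list took 0.686% and 0.678% of the counts in brain, 0.0172% and 0.0245% in tMCAO blood and 0.675% and 0.426% in sham blood, so sham blood stood near brain and the blood groups differed. B cell genes were also higher in sham than in tMCAO blood, and their part in this was not tested. *H2-Ab1* measured 2139 and 2273 CPM in brain against 8.66 and 18.9 CPM in stroke blood (log2 fold change 7.32 ± 0.57, adjusted p = 0.000218) and *Cd74*, the invariant chain, 4454 and 4223 CPM in brain against 24 and 79.6 CPM in stroke blood (log2 fold change 6.39 ± 0.69, adjusted p = 0.000745). Of 20 genes of MHC class I presentation, which nearly all cells use, 8 fell and 2 rose (median -1.04). *Psmb9*, a subunit of the immunoproteasome, measured 67.8 and 63.5 CPM in brain against 235 and 257 CPM in stroke blood (log2 fold change -1.90 ± 0.24, adjusted p = 0.00145), and *Nlrc5*, the activator of class I genes, 8.85 and 6.7 CPM in brain against 44.2 and 64.4 CPM in stroke blood (log2 fold change -2.80 ± 0.38, adjusted p = 0.00177). The chaperones *Calr* and *Canx* rose (2.52 ± 0.35 and 1.57 ± 0.26 on the log2 scale). On FPKM values with pseudocounts of 1 and 0.1, *Nlrc5* (log2 fold change -2.56 and -3.26) and *Canx* (0.82 and 0.83) lost their calls. *B2m*, the light chain of all class I molecules, was among the most equal genes of the comparison. In this list 4 genes were lower without either brain library and 13 under library size scaling. *H2-Q4* and other class I genes are close copies, so their counts are uncertain.

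Response programs rose in part. Of 20 early response factors 17 were higher (median 5.42). *Fosb* measured 95.1 and 84.8 CPM in brain against 0.979 and 1.46 CPM in stroke blood (log2 fold change 6.20 ± 0.40, adjusted p = 0.000128), *Atf3* 1096 and 1598 CPM in brain against 0.464 and 1.46 CPM in stroke blood (log2 fold change 10.46 ± 0.96, adjusted p = 0.0004) and *Jun* 119 and 305 CPM in brain against 5.21 and 2.56 CPM in stroke blood (log2 fold change 5.76 ± 0.61, adjusted p = 0.0007). Of 15 genes of NF-kappaB and its feedback, 8 rose and *Ikbkb* fell, and 5 rose without brain replicate 2. Beside T cell scaling, *Ikbkb* lost its call in 11 alternatives, with log2 fold changes of -1.22 to -0.55, among them all runs without 1 library other than tMCAO blood replicate 2. *Nfkbia*, the inhibitor of NF-kappaB, measured 1731 and 3897 CPM in brain against 258 and 273 CPM in stroke blood (log2 fold change 3.41 ± 0.44, adjusted p = 0.00155). Of 25 interferon-stimulated genes 10 rose, 2 fell and 13 did not pass (median 0.97), and 4 and 5 rose without brain replicates 1 and 2 and 6 under library size scaling. *Ifitm3* measured 805 and 437 CPM in brain against 1.65 and 4.66 CPM in stroke blood (log2 fold change 7.62 ± 0.71, adjusted p = 0.000415) and *Oasl2* 73.5 and 48.8 CPM in brain against 1.08 and 1.75 CPM in stroke blood (log2 fold change 5.43 ± 0.47, adjusted p = 0.000328). Of 25 genes of DNA replication and mitosis 10 were lower and none higher. *Mcm6*, a subunit of the replicative helicase, measured 47.5 and 45 CPM in brain against 329.7 and 241 CPM in stroke blood (log2 fold change -2.62 ± 0.29, adjusted p = 0.000839). The number lower was 19 under library size scaling, 7 under ribosomal scaling, and 3 and 6 without brain replicates 1 and 2.

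Survival and energy genes were mixed. *Bcl2* measured 8.3 and 10.7 CPM in brain against 198 and 186 CPM in stroke blood (log2 fold change -4.34 ± 0.30, adjusted p = 0.000166), and *Mcl1*, another protein against apoptosis, 1229 and 1396 CPM in brain against 299.8 and 152 CPM in stroke blood (log2 fold change 2.54 ± 0.38, adjusted p = 0.00268). In all, 5 of 15 genes of the BCL2 family rose and *Bcl2* fell, and 3 rose without brain replicate 2. Of 21 genes of glycolysis 8 rose (38.1%, against 21.9% of all genes) and 3 fell (14.3%, against 14.4%). Without brain replicate 1 the numbers were 5 and 1, and without brain replicate 2 they were 7 and 1. *Hk2* (4.65 ± 0.53) and *Pfkfb3* (4.50 ± 0.34) rose on the log2 scale, and *Hk3*, a hexokinase of myeloid cells, had 380 and 268 counts in brain and none in tMCAO blood. *Slc2a3*, the glucose transporter GLUT3, fell (-2.75 ± 0.56), as did *Pfkp* (-2.27 ± 0.40), but *Slc2a3* lost its call without brain replicate 1 (adjusted p = 0.0524) and *Pfkp* without brain replicate 2 (adjusted p = 0.0567). Of 15 heat shock chaperones 4 rose (26.7%, against 21.9% of all genes) and *Hsph1* fell, and the call of *Hsph1* was lost in 11 alternatives beside T cell scaling, among them the replicate block, ribosomal scaling and the runs without any 1 library other than tMCAO blood replicate 1. *Hspa1a* and *Hspa1b*, near-identical copies whose counts are uncertain, had 220 and 209 and 474 and 354 counts in brain and none in tMCAO blood. *Hspa5*, the chaperone BiP, measured 1930.3 and 1445 CPM in brain against 381 and 454 CPM in stroke blood (log2 fold change 2.02 ± 0.29, adjusted p = 0.00232).

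Equal levels were found in the machinery that all cells share. *B2m* (chr2:122147686-122153083) measured 4217 and 5148 CPM in brain against 4286 and 4994 CPM in stroke blood, a log2 difference of 0.01 with a 95% interval of -0.70 to 0.73. *Ube2d3*, a ubiquitin-conjugating enzyme, measured 1743 and 1401 CPM in brain against 1324 and 1814 CPM in stroke blood (interval -0.70 to 0.71). *Capzb*, which caps actin filaments, measured 859 and 805 CPM in brain against 705 and 946 CPM in stroke blood (interval -0.64 to 0.67). Brain and blood libraries overlapped in these genes. The other genes of highest level within 2-fold were *Rap1b*, *Eef1a1*, *Cdc42*, *Dazap2*, *Eif1*, *Tmed2*, *Lcp1*, *Eif5a*, *Atp5b*, *Ldha*, *Tpm3* and *Tpt1*. They serve translation, the cytoskeleton, traffic and energy, and their log2 differences lay between -0.27 (*Lcp1*) and 0.30 (*Cdc42*). Under library size scaling the median of all genes was -0.44, so equality here is relative to TMM.

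By gene list, the share within 2-fold was 56.5% of 23 translation factors, 40.8% of 76 nuclear subunits of oxidative phosphorylation, 40% of 80 cytosolic ribosomal proteins and 34.2% of 38 proteasome subunits, against 9.03% of all genes. For the spliceosome core it was 23.3% of 30, for RNA polymerase II and its general factors 25% of 20 and for mitochondrial ribosomal proteins 17.1% of 76. Their medians were on the lower side, at -0.08 for translation factors, -0.43 for cytosolic and -0.54 for mitochondrial ribosomal proteins, and moved with the scaling. Under ribosomal scaling the medians of translation factors, the spliceosome, the proteasome and oxidative phosphorylation became 0.28, 0.06, 0.16 and 0.09. Under library size scaling, 33 of the 80 ribosomal protein genes were called lower. The numbers within 2-fold then fell to 2 of 23 translation factors, 13 of 76 genes of oxidative phosphorylation and 12 of 80 ribosomal proteins. They were 9 of 38 for the proteasome and 1 of 30 for the spliceosome, with 617 of all 11756 genes within 2-fold. The numbers within 2-fold were also sensitive to single libraries, from 12 without brain replicate 1 to 52 without tMCAO blood replicate 2 for ribosomal proteins, and from 7 without either brain library to 60 for oxidative phosphorylation.

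**Figure D4:**
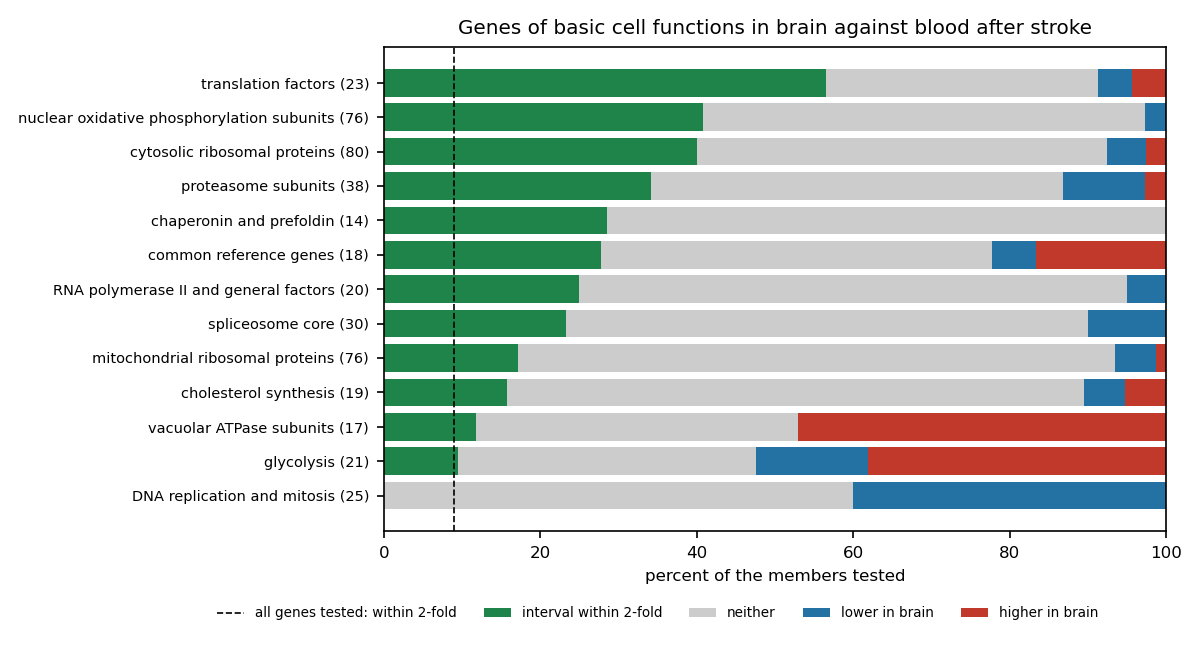
Percent of the tested members of 13 gene lists of basic cell functions in each class of the comparison, with the number tested after each name. The dashed line is the 9.03% of all genes within 2-fold, and translation factors, oxidative phosphorylation and ribosomal proteins reach furthest past it.

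Some members of these shared complexes differed, at shares below those of all genes. In the proteasome 10.5% of the genes were lower, and among ribosomal proteins 5% were lower and 2.5% higher. Of all genes 14.4% were lower and 21.9% higher. In the proteasome 4 of 38 genes fell, against 16 under library size scaling, 9 without tMCAO blood replicate 1, 2 without tMCAO blood replicate 2 or either sham library and 1 without either brain library. The 4 included *Psmb8*, *Psmb9* and *Psmb10*, the 3 catalytic subunits of the immunoproteasome, with *Psmb8* at 450.3 and 458 CPM in brain against 1188 and 2170.1 CPM in stroke blood (log2 fold change -1.89 ± 0.35, adjusted p = 0.0064). *Psmb8* lost its call without either brain library (adjusted p = 0.0575 and 0.0528). *Psmb10* lost its call in 7 alternatives beside T cell scaling, among them ribosomal scaling (log2 fold change -0.76) and edgeR on the 4 libraries (adjusted p = 0.0645), and *Psmb9* lost its call under T cell scaling alone. *Psma8*, a subunit best known from testis, had 76 and 112 counts in brain and none in tMCAO blood. Among ribosomal proteins 2 rose and 4 fell, with *Rpl13a* at 199.9 and 232 CPM in brain against 511 and 606 CPM in stroke blood (log2 fold change -1.37 ± 0.25, adjusted p = 0.00618). *Rpl13a* lost its call without brain replicate 1 (log2 fold change -1.28). Ribosomal protein genes have many processed copies, and reads of more than 1 position were not counted, so their values are uncertain. Genes in common use as references were not all equal. *Gusb*, a lysosomal enzyme, measured 770.0 and 914 CPM in brain against 52.8 and 39.3 CPM in stroke blood (log2 fold change 4.19 ± 0.32, adjusted p = 0.000212) and *Gapdh* 1598 and 1386 CPM in brain against 577 and 365 CPM in stroke blood (log2 fold change 1.66 ± 0.32, adjusted p = 0.007). *Gapdh* lost its call without brain replicate 1 (log2 fold change 1.54) and on FPKM values with a pseudocount of 0.1 (1.32).

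By FPKM, the 10 most abundant genes of the brain-sorted libraries were *Apoe*, *Ftl1*, *Fth1*, *Tmsb4x*, *Ctsb*, *Spp1*, *C1qb*, *Cst3*, *Ctss* and *Ctsd*, and 9 of them were called higher there. *Tmsb4x*, which binds actin monomers, was also first in tMCAO blood, at 19568 and 25263 FPKM against 12504 and 12463 in brain, and did not pass (log2 fold change -0.50 ± 0.35, adjusted p = 0.292). The next in blood were *B2m*, *Cd52*, *Ppia*, *Crip1*, *Sub1*, *Gm1821*, *H2afz*, *Rps19* and *Rps18*. Of these *Cd52*, a leukocyte surface peptide (log2 fold change -1.60 ± 0.31, adjusted p = 0.00706), *Crip1*, a small LIM protein (log2 fold change -2.51 ± 0.29, adjusted p = 0.000978), *Sub1* (log2 fold change -2.12 ± 0.49, adjusted p = 0.0143) and *H2afz*, a histone variant (log2 fold change -1.33 ± 0.29, adjusted p = 0.0115), were lower in brain. *Cd52* lost its call without brain replicate 2 and *Sub1* without either brain library. *H2afz* lost its call in 6 alternatives beside T cell scaling, among them ribosomal scaling (-0.98) and the runs without either brain or either sham library. *P2ry12* is listed at 0 FPKM in both tMCAO blood libraries, which hold 148 and 102 counts on it, so a listed 0 in FPKM is not an absence of reads.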

How the data were processed

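Cells were sorted from brain and blood and sequenced as paired 75-base reads. The authors checked reads with FastQC, trimmed them and mapped them to GRCm38 (mm10) with TopHat, estimated abundances with Cufflinks, and the deposited tables hold raw counts per gene symbol and FPKM values (fragments scaled to transcript length and depth). The TopHat version is not given in the sources used here, nor is the annotation release. The count table closes with 5 lines that name no gene, among them reads outside features (43.6% to 45.6% of the reads of the 4 libraries) and reads without a unique position (14.0% to 19.5%), and 27 lines carry dates in place of symbols. All were left out.

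Counts were tested with edgeR 4.0.16 in R 4.3.3 (TMM, glmQLFit, glmQLFTest, 3 groups of 2 libraries in 1 fit, Benjamini-Hochberg adjustment over 11756 genes). A call needed an adjusted p under 0.05 and a fold over 2, and equality a 95% interval within 2-fold. With 2 libraries per group no permutation test can reach 0.05, so every p comes from this model. Alternatives used DESeq2 1.42.0, limma 3.58.1 on FPKM and voom values, other scalings and filters, a replicate block and each library left out. A gene without counts in a tissue was set to 3 counts over that group for a lower bound, and with 1 to 3 counts the ratio has an exact binomial interval. Bounds and intervals cover counting error alone, because PCR copies were not removed by molecular identifiers. The SE was derived from the F statistic as abs(log2 fold change)/sqrt(F), or, for changes under 0.1, from the fitted weights. The script was tested on simulated counts in which far fewer genes changed than here. That run cannot tell how the scaling behaves under such broad differences. Summaries used scipy 1.17.1 and pandas 2.3.3 under Python 3.11.15, and positions come from GENCODE M21.

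Genes named are the markers, those the study followed, the 15 of smallest p in each direction, the 10 of highest FPKM per tissue, the 15 of highest level within 2-fold, up to 5 of smallest p per list with up to 3 against its direction, and all adaptors and kinases of the ITAM lists. The markers given as 0, *Itgax*, *Med12l*, *Cxcl9*, *Ctsa* and *Gla* are named outside this rule, with their values seen, and some genes the rule names are not reported here. Genes and the 61 lists were chosen with earlier results of these data known. One list, of mitochondrially encoded genes, matched 0 symbols.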

Additional observations from a re-analysis of the deposited data

How the results depend on the processing

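Calls in brain against tMCAO blood numbered 2573 higher, 1690 lower and 1062 within 2-fold. They changed by more than 1.5 times in these settings. At an adjusted p under 0.01, 1531 were higher and 863 lower. Under library size alone 2900 were lower and 617 within 2-fold. Scaled to T cell genes, 11410 were higher, 7 lower and 0 within 2-fold, and 116 of 339 named genes changed sign to a positive log2 fold change, by the construction of that scaling. The values of those reported here were 7.06 (*Aldoc*), 6.32 (*Atp5h*), 3.27 (*Bcl2*), 2.53 (*Btla*), 4.49 (*Ccne1*), 0.52 (*Ccr7*), 7.11 (*Cct2*), 6.73 (*Cct5*), 6.74 (*Cct7*), 0.16 (*Cd160*), 0.67 (*Cd247*), 0.75 (*Cd3e*), 5.94 (*Cd52*), 3.07 (*Cd55*), 2.83 (*Cd69*), 7.04 (*Cd79b*), 5.72 (*Cnp*), 5.02 (*Crip1*), 5.90 (*Cst7*), 2.41 (*Ctla4*), 7.52 (*Cxcr2*), 1.32 (*Cxcr3*), 4.91 (*Cxcr5*), 0.45 (*Cxcr6*), 7.53 (*Dazap2*), 7.04 (*Eef1g*), 6.48 (*Eif3e*), 6.61 (*Eif4a2*), 7.44 (*Eif5a*), 0.46 (*Eomes*), 3.18 (*Fyn*), 1.21 (*Gimap1*), 0.10 (*Gimap4*), 1.04 (*Gimap6*), 6.74 (*Gm1821*), 1.22 (*Gpr174*), 1.70 (*Gzma*), 1.29 (*Gzmk*), 3.24 (*H2-Q4*), 6.23 (*H2afz*), 4.86 (*Hcst*), 5.50 (*Hsph1*), 6.11 (*Ifi35*), 6.52 (*Ikbkb*), 0.31 (*Il18r1*), 3.62 (*Il18rap*), 1.36 (*Il2rb*), 3.44 (*Il2rg*), 3.48 (*Il7r*), 4.23 (*Itga4*), 3.13 (*Itgae*), 5.56 (*Jak1*), 1.43 (*Klrb1c*), 0.48 (*Klrc1*), 0.62 (*Klrd1*), 0.77 (*Klrk1*), 7.29 (*Lcp1*), 0.27 (*Lef1*), 1.22 (*Lta*), 3.44 (*Ly6c2*), 7.004 (*Mbp*), 5.37 (*Mcm4*), 5.83 (*Mcm5*), 4.95 (*Mcm6*), 6.75 (*Med1*), 5.94 (*Mrpl18*), 6.68 (*Mrpl57*), 6.40 (*Mrpl9*), 5.47 (*Mrps16*), 6.47 (*Ndufb11*), 6.90 (*Ndufs4*), 4.73 (*Nlrc5*), 6.68 (*Nsdhl*), 4.33 (*Pecam1*), 5.27 (*Pfkp*), 0.0639 (*Pglyrp1*), 6.67 (*Polr2b*), 6.24 (*Polr2d*), 5.99 (*Ppbp*), 7.12 (*Ppia*), 1.07 (*Prf1*), 6.43 (*Psmb10*), 5.68 (*Psmb8*), 5.66 (*Psmb9*), 0.0323 (*Ptprcap*), 5.202 (*Rac2*), 7.36 (*Rap1b*), 6.23 (*Rpl13a*), 6.55 (*Rpl4*), 6.58 (*Rps18*), 6.58 (*Rps19*), 6.57 (*Rps7*), 5.07 (*Rrm2*), 4.86 (*S1pr1*), 6.66 (*Sc5d*), 6.16 (*Selplg*), 6.30 (*Sf3a3*), 6.34 (*Slc16a1*), 4.95 (*Slc2a3*), 6.29 (*Snrpa1*), 6.56 (*Snrpe*), 6.74 (*Snrpg*), 5.42 (*Sub1*), 6.71 (*Tbp*), 0.94 (*Tcf7*), 6.80 (*Tcp1*), 1.40 (*Tigit*), 7.07 (*Tmsb4x*), 4.07 (*Tubb3*), 0.63 (*Txk*), 6.59 (*Vbp1*) and 0.20 (*Zap70*). On FPKM, 1591 were higher with a pseudocount of 1, and 332 were within 2-fold with 0.1. With the 4 libraries alone, 371 genes were within 2-fold in edgeR and 519 in DESeq2. Without 1 library, the numbers ranged from 1312 to 3406 higher, 739 to 2144 lower and 227 to 1925 within 2-fold. Leaving out brain replicate 1 or 2 gave 1312 and 1347 higher, 739 and 845 lower, and 245 and 227 within 2-fold. Leaving out sham replicate 1 or 2 gave 372 and 379 within 2-fold, and leaving out tMCAO blood replicate 2 gave 1925. Where a tissue keeps 1 library, it is assumed to vary like the others.

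The deviations of same-numbered libraries were nearly uncorrelated (r = 0.0835 between those of brain and tMCAO blood over 8062 genes). With 2 libraries per group and such unlike transcripts, this cannot decide whether they share mice. The sources used here do not say, and the libraries were treated as unpaired. A replicate block gave 2355 higher, 1449 lower and 795 within 2-fold. The other settings, which were DESeq2 on all libraries (2809, 1916 and 1410), size factors by relative log expression (2587, 1681 and 1033), voom (2852, 1595 and 1088), other filters and ribosomal scaling, stayed within 1.5 times. No gene was called in opposite directions except under T cell scaling (1364) and on FPKM (4 and 7). Genes with few counts in 1 tissue limit the folds that can be given, and the fit shares 1 estimate of spread although the replicates of tMCAO blood were further apart than those of brain.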
